A study of Mus musculus with 8 samples.

Results

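The genes described here are 9 transcriptional and RNA-binding regulators that are used to tell apart cortical and amygdalar interneurons of medial and caudal ganglionic eminence origin: Nkx2-1, Lhx6, Sox6, Satb1, Npas1, Maf, Nr2f2, Prox1 and Adarb2. They were taken by name from a list drawn up without a threshold on their values, but with earlier results of these data known. Each has a row among the 32542 genes of the deposited tables. Of the 9, 8 passed the filter on low counts and were tested among 14157 genes; Npas1 did not pass. The samples were GFP-positive cells sorted from the dissected amygdala of mouse embryos at E16.5, labelled as amygdalar intercalated cells. Control embryos were Tshz1 GFP/+ and knockout embryos Tshz1 GFP/RA, so both genotypes carry the GFP allele of Tshz1, which encodes a teashirt-type zinc finger factor, and the knockout carries the RA allele in place of the wild type one. All mice were kept on an outbred background, and tissue from embryos of 1 genotype was pooled before the sort, so each library is a pool. There are 4 control and 4 knockout libraries. Each title begins with NX, NY, QT or RM, a prefix that 1 control and 1 knockout library share and whose meaning the labels do not give; libraries are named here by genotype and prefix.

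Interneurons of the forebrain are born in the ganglionic eminences and migrate tangentially. In the medial ganglionic eminence (MGE), the homeodomain factor Nkx2-1 specifies the lineage and switches on the LIM-homeodomain gene Lhx6, and Sox6, Satb1 and Maf act in the maturing somatostatin and parvalbumin cells. In the caudal ganglionic eminence (CGE), the nuclear receptor Nr2f2 (COUP-TFII) and the homeodomain factor Prox1 mark and shape the lineage, and Adarb2, which encodes a catalytically inactive relative of the RNA-editing enzymes, marks CGE-derived cells in adult cortex. Npas1 encodes a basic helix-loop-helix PAS factor of interneurons. Intercalated cells are GABAergic neurons in clusters around the basolateral amygdala. They come from the dorsal lateral ganglionic eminence (LGE) and express Foxp2 and Meis2, so most of the genes described here are textbook markers of another lineage.

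Upstream sequence is shown for the 3 CGE genes whose levels the results turn on, since Nr2f2 and Prox1 varied together between libraries and Adarb2 did not vary with them. Each is the 250 bases before the RefSeq start on GRCm38.p6, 5′ to 3′ on the gene's strand, with capitals for a searched motif. Nr2f2 (minus strand, chr7:70366747-70366996) holds 1 match, the reverse of the NKX2-1 letters. Prox1 (minus strand, chr1:190170828-190171077, the first of 2 listed starts) holds none of the motifs searched. Adarb2 (plus strand, chr13:8202616-8202865) holds 1 TAATTA, the core that LIM and DLX homeodomain factors bind.
Nr2f2: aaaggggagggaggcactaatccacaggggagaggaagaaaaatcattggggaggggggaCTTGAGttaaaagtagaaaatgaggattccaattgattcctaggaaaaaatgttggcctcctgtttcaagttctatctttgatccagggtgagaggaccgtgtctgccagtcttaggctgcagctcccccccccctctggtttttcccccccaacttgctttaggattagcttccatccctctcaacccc
Prox1: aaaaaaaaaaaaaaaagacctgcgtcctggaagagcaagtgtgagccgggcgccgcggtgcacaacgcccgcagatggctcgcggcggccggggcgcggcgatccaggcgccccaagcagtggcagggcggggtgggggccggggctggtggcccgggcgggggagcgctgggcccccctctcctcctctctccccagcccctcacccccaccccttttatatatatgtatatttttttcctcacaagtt
Adarb2: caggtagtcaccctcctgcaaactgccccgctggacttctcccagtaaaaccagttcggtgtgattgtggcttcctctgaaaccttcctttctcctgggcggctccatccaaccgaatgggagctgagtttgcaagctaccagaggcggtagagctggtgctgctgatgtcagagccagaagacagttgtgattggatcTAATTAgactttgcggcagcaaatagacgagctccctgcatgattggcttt
The letters searched, on both strands, were CTCAAG (NKX2-1), TAATTA (LIM and DLX homeodomain), AGGTCA (core of the NR2F site) and TGCTGAC (core of the MAF site), and no 2 matches overlapped. Among 32851 upstream windows of the same length, 13.3% held the first, 4.84% the second, 14.0% the third and 3.81% the last. In Nr2f2 the match begins 190 bases before the start, and in Adarb2 it begins 51 bases before it. Of the 8 members with an entry in the RefSeq table, Sox6 and Satb1 also held at least 1 match, and Nkx2-1, Lhx6, Npas1 and Prox1 held none. Maf had no entry. These are matches of letters and nothing more.

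The genes lie on separate chromosomes or far apart. In the GENCODE annotation of GRCm38, Nkx2-1 is at chr12:56531958-56536908, Lhx6 at chr2:36081953-36105408, Sox6 at chr7:115470872-116038796, Satb1 at chr17:51736187-51833290, Npas1 at chr7:16455721-16477728, Maf at chr8:115682942-115707794, Nr2f2 at chr7:70351944-70366735, Prox1 at chr1:190118035-190170714 and Adarb2 at chr13:8202866-8768747. All are protein coding, and values are for whole genes, over their exons and UTRs. An antisense gene overlaps exons of Satb1 (Gm6934), Maf (Gm15655), Nr2f2 (B130024G19Rik) and Prox1 (Prox1os). Libraries made with the stated kit keep no strand information, and reads of these 4 genes could therefore include some from the antisense partner. On the same strand, Gm27953 overlaps Lhx6 and Gm36931 overlaps Satb1. Expected counts were whole in all 8 libraries for Sox6, Satb1, Npas1, Nr2f2 and Prox1, and in none of the 8 for Nkx2-1, Lhx6, Maf and Adarb2, where fragments that map to several places were shared out; values of the latter 4 are less certain for that reason.

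Library totals ran from 5785549 to 14535810 expected counts, and 3 counts, taken as the floor, stood for 0.186 to 0.545 CPM, that is, counts scaled to a common library total with a TMM factor. The labelled cell type was checked first. All 9 intercalated cell markers were tested, none was at 0, and their summed TPM (transcript level scaled per gene length and to a common total) ran from 779 to 1643 in control and from 508 to 1077 in knockout libraries. Meis2 averaged 675 TPM over the 8 libraries, but Oprm1 and Drd1 only 4.42 and 3.96 TPM. For progenitor markers the sum ran from 196 to 1734 TPM in control and from 503 to 1745 TPM in knockout libraries. The sum of intercalated cell markers alone cannot show which cells were sorted. Tshz1 fell in the knockout (log2 fold change -2.27, SE 0.30, edgeR quasi-likelihood adjusted p = 0.0388, lower in 4 of 4 prefixes); its groups did not overlap, at 85.4 to 217 TPM against 12.8 to 56.5 TPM. Its log2 fold change stayed between -2.55 and -2.12 when single libraries were left out, but the call was lost without control NX, QT or RM or knockout NY, QT or RM (edgeR adjusted p from 0.0657 to 0.183). One library is set beside the results throughout, because it touches most of them. Control NX had the lowest summed TPM of the 8 libraries for pallial, progenitor, oligodendrocyte, microglia and vascular markers and the highest for intercalated cell markers. It was the lowest of 8 for 17.1% and the highest for 16.2% of tested genes. Knockout QT was the lowest for 17.3% and the highest for 14.3%, so control NX was not alone in this.

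Levels between genes were compared by TPM. Over the 8 libraries the mean was 43.1 ± 25.2 TPM for Adarb2, 27.1 ± 12.3 for Nr2f2, 25.6 ± 10.3 for Prox1, 25.0 ± 7.5 for Satb1, 22.7 ± 12 for Sox6, 18.1 ± 7.4 for Lhx6, 11.5 ± 3.3 for Maf, 3.56 ± 1.93 for Nkx2-1 and 0.941 ± 0.868 for Npas1 (SD, n = 8). Neighbours in this order from Adarb2 down to Maf lay within the larger of their 2 SDs of each other. The step from Maf to Nkx2-1 and the step from Nkx2-1 to Npas1 exceeded it. Among all genes listed above 0 in a library, the median percentile over the libraries was 82.1 for Adarb2, 79.0 for Nr2f2 and 76.4 for Prox1, and 35.5 for Nkx2-1 and 16.03 for Npas1. By mean, the 3 best-expressed members were the CGE genes Adarb2, Nr2f2 and Prox1. For scale, Foxp2 averaged 137 TPM and Meis2 675 TPM. TPM and CPM did not move in step between libraries: Prox1 was 18.4 TPM at 62.4 CPM in knockout RM and 28.2 TPM at 58.0 CPM in knockout QT. Comparisons of 1 gene between libraries therefore use CPM unless TPM is named.

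Nkx2-1, which founds the MGE lineage, was near the floor in 1 library and low in the rest. In control NX, NY, QT and RM it was 0.124, 3.92, 3.06 and 2.54 CPM, and in the knockout libraries in the same order 3.68, 6.63, 4.72 and 10.48 CPM. The control NX value rests on 2 counts, which is under the floor of 3, so no fold is given against it. In CPM the genotypes overlapped between knockout NX and control NY alone, and the knockout was higher within each of the 4 prefixes. In TPM they did not overlap, at 0.11 to 3.28 TPM in control and 4.17 to 5.86 TPM in knockout libraries.

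Lhx6, its direct target and the gene that keeps MGE interneurons on their path, was 6.70, 34.9, 41.2 and 43.6 CPM in control NX, NY, QT and RM. Knockout libraries had 20.6, 46.8, 21.5 and 42.1 CPM. The lowest library was control NX and the highest knockout NY, and the genotypes overlapped over most of their range.

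Sox6, an SRY-box factor needed for the positioning and maturation of MGE interneurons, was 13.7, 60.0, 143 and 74.7 CPM across the controls and 103, 105, 170 and 130 CPM in knockout libraries. Both QT libraries were the highest of their genotype. Within each of the 4 prefixes the knockout was the higher, yet control QT exceeded 3 of the 4 knockout libraries.

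Satb1, a chromatin organiser that promotes somatostatin cell maturation, was 55.2, 109, 126 and 90.0 CPM across the controls and 58.5, 88.6, 86.6 and 81.2 CPM in knockout libraries. Both NX libraries were low. Maf, a basic leucine zipper factor of the same lineage, was 7.13, 28.3, 22.3 and 22.9 CPM across the controls and 18.6, 27.0, 19.0 and 30.4 CPM in knockout libraries; control NX was again the lowest of the 8.

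Npas1 was close to the floor in most libraries. Its counts were 6, 4, 8 and 19 in control and 18, 9, 6 and 2 in knockout libraries, or 0.372, 0.296, 0.612 and 3.45 CPM against 1.23, 0.745, 0.913 and 0.333 CPM. Control RM stood above the other 7 libraries, and knockout RM, with the same prefix, was under the floor. At this depth no difference in Npas1 was detectable.

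Nr2f2 was 19.3, 67.1, 96.5 and 62.9 CPM across the controls and 46.5, 38.8, 89.2 and 71.2 CPM in knockout libraries. Control NX was the lowest and the QT libraries were the 2 highest. Prox1 was 19.7, 66.4, 93.0 and 63.1 CPM across the controls and 41.3, 50.7, 58.0 and 62.4 CPM in knockout libraries. The ratio of Prox1 to Nr2f2 in TPM stayed between 0.658 and 1.32 over all libraries and was 1.03 in control NX, where both were at their lowest.

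Adarb2 had another order of libraries. It was 236, 97.0, 135 and 152 CPM across the controls and 105, 67.0, 82.0 and 73.4 CPM in knockout libraries, so control NX, the lowest library for the other 7 tested members, was the highest for Adarb2. Control NY and knockout NX were the only pair by which the genotypes overlapped. In TPM, Adarb2 exceeded Lhx6 by 21.4-fold in control NX, while its ratio to Lhx6 ran from 0.870 to 3.01 in the other 7 libraries. Its TPM ratio to Foxp2 was much steadier, from 0.227 to 0.470 over all 8. Ratios of Adarb2 to other genes were not compared, so this steadiness is not shown to be particular to Foxp2.

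**Figure D1:**
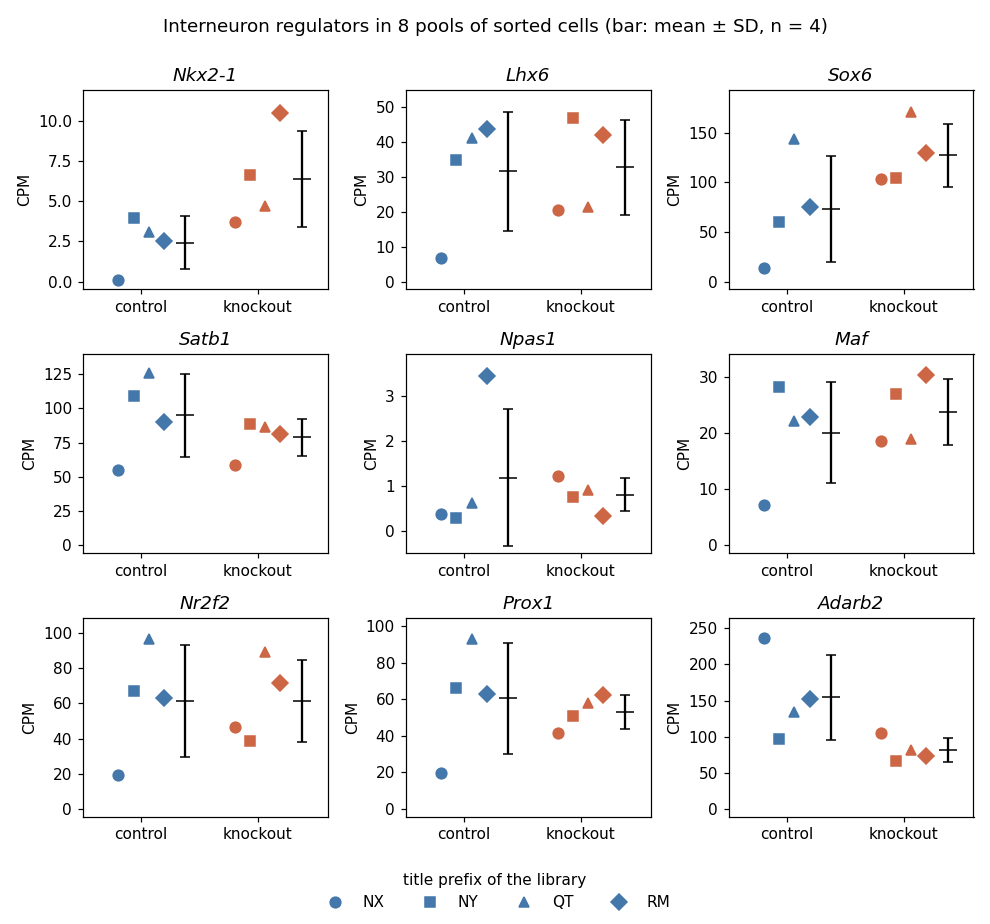
TMM-scaled CPM of the 9 genes in each library, control (blue) and knockout (orange), with a symbol for each title prefix and the mean ± SD of 4 libraries beside the points. Control NX (blue circle) is the lowest of 8 libraries for Nkx2-1, Lhx6, Sox6, Satb1, Maf, Nr2f2 and Prox1 and the highest, at 236 CPM, for Adarb2.

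The place of control NX was set beside the marker lists. In that library Foxp2 was at its highest of the 8 libraries in both units (351 TPM, 887 CPM). Meis2 was at its highest there in TPM (1051), while in CPM control RM (1786) exceeded control NX (1639). The intercalated cell list did not rise as one in control NX. Etv1 (6.82 CPM, 4.05 TPM) and Tshz2 (11.3 CPM, 5.13 TPM), named after their values were seen, were at their lowest of the 8 libraries. In TPM, all other genes of the list were at their highest there. Summed TPM of the 5 oligodendrocyte lineage markers was 0.52 there and 1.76 to 29.0 in the other 7 libraries. For the 10 microglia and macrophage markers it was 8.65 against 22.7 to 168, and for the 12 endothelial, mural and meningeal markers 1.72 against 3.04 to 36.8, with Lum at 0 in all libraries. Pallial glutamatergic markers (11 genes) summed to 32.1 TPM against 143 to 435, and progenitor markers (11 genes) to 196 against 503 to 1745. No gene of the pallial, progenitor, oligodendrocyte or microglia lists was at 0 in every library. In the same library Adarb2 stood at 98.8 TPM, Satb1 at 19.2, Prox1 at 10.6, Nr2f2 at 10.3, Lhx6 at 4.62, Maf at 4.45 and Sox6 at 3.77 TPM. On the CPM scale 7 members were at their lowest of the 8 libraries in control NX, and Adarb2 was at its highest. On the TPM scale the same held for 6 members and Adarb2, since Satb1 was lowest in knockout RM, at 15.0 TPM. In these bulk libraries, fewer cells of a type and less RNA per cell cannot be told apart. The part of other cells in the members' levels was not tested.

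**Figure D2:**
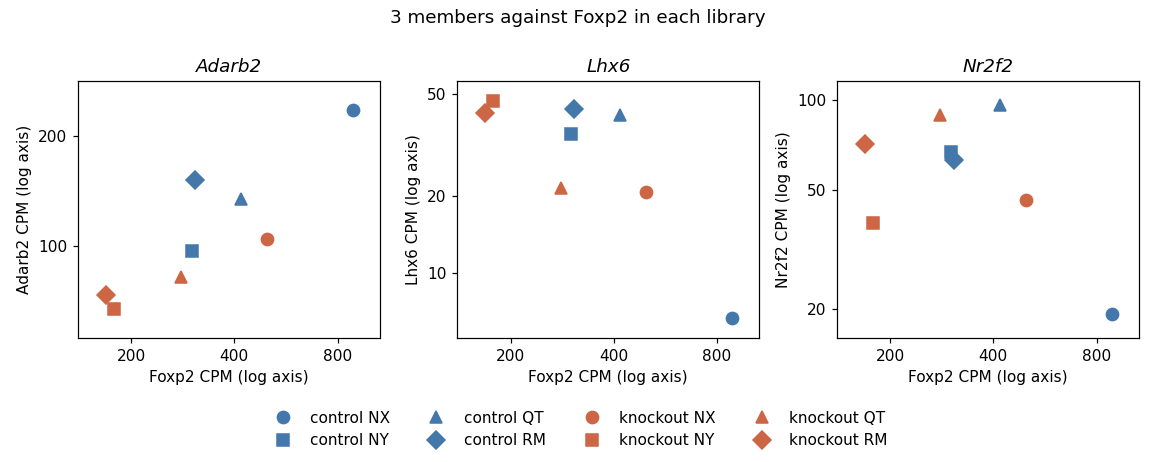
CPM of Adarb2, Lhx6 and Nr2f2 (vertical log axes) against Foxp2, an intercalated cell marker (horizontal log axis), 1 point per library. Control NX, at the right edge of each panel, is the highest library for Adarb2 and the lowest for Lhx6 and Nr2f2; points of 1 library share its scaling.

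Spread between pools of 1 genotype differed among the members. The SD of log2 CPM, pooled over both genotypes, was 1.31 for Nkx2-1, 1.03 for Sox6, 1.00 for Lhx6, 0.81 for Nr2f2, 0.71 for Prox1, 0.68 for Maf, 0.42 for Adarb2 and 0.41 for Satb1, beside a median of 0.51 over all tested genes. Nkx2-1 thus varied more than 92.2% of tested genes, and Adarb2 more than 38.6% of them. Control NX carried much of this. Without it, Sox6, Lhx6 and Nr2f2 were at the 50.3, 50.8 and 48.6 percentiles, Nkx2-1 at 54.5, and Maf, Prox1, Adarb2 and Satb1 at 20.8, 17.0, 20.9 and 14.4. Among the other 7 libraries no member therefore stood out by its spread. On log2(TPM + 1) values with all 8 libraries, Sox6 was at the 92.5 percentile, Nkx2-1 at 70.2, Adarb2 at 67.2 and Satb1 at 21.3. The control NX value of Nkx2-1 rests on 2 counts, so its spread in log2 CPM depends on the prior count.

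Each tested member was then compared with each of 9 marker lists across the 8 libraries, using log2 CPM and the mean log2 CPM of the list. The mean took in tested genes only. These were 3 of the 12 vascular genes (Rgs5, Pdgfrb and Cdh5) and 3 of the 6 erythroid genes. They were 9 of the 10 microglia and 10 of the 11 striatal genes, and all genes of the other lists. Of the 72 pairs, 7 passed Pearson's r with an exact two-sided permutation p adjusted by Benjamini-Hochberg, all with r above 0. By Spearman's rho none passed, and the smallest adjusted exact permutation p was 0.0821. Maf passed with the oligodendrocyte lineage list (r = 0.90, exact permutation adjusted p = 0.0232; rho = 0.95) and with the progenitor list (r = 0.86, exact permutation adjusted p = 0.0232; rho = 0.90, adjusted p = 0.164). Without the 2 libraries farthest from the list median, both NX libraries, r was 0.83 and 0.81. In control NX, Olig1, Olig2, Sox10, Pdgfra and Cspg4 had 1, 7, 0, 1 and 0 counts. In knockout NX they had 8, 4, 2, 24 and 3 counts. Of the microglia list, Csf1r, Aif1, C1qb, C1qc and Ptprc had 1 count each in control NX. So near the floor, these list means depend on the prior count of 2 added before the log.

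Lhx6 passed with the oligodendrocyte lineage (r = 0.91, rho = 0.67), microglia (r = 0.89, rho = 0.79) and progenitor lists (r = 0.87, rho = 0.69), each at an exact permutation adjusted p of 0.0469 for r; the adjusted p for rho was 0.315, 0.251 and 0.294. Without both NX libraries r was 0.66, 0.74 and 0.50, so the relation with progenitor markers rests on those libraries. Nr2f2 (r = 0.91, rho = 0.79) and Prox1 (r = 0.94, rho = 0.74) passed with the pallial glutamatergic list, at an exact permutation adjusted p of 0.0469 for r and 0.251 and 0.294 for rho. Leaving out control NX and control QT, the farthest for this list, gave r of 0.65 and 0.48, and the relation of Prox1 rests on them. Without control NX alone, the 7 passing values lay between 0.75 and 0.85. The CGE factors Nr2f2 and Prox1 thus passed with pallial markers, and the MGE genes Lhx6 and Maf with oligodendrocyte lineage and progenitor markers. A split by lineage was not tested. Prox1 had r of 0.84 with the oligodendrocyte lineage, 0.80 with the progenitor and 0.77 with the microglia list. None of these passed (exact permutation adjusted p = 0.0732, 0.0901 and 0.0901). For Nr2f2 the r values were 0.69, 0.67 and 0.56 (exact permutation adjusted p = 0.192, 0.202 and 0.242). On log2(TPM + 1) values, Nr2f2 and Prox1 still passed with the pallial list (r = 0.94 and 0.96, exact permutation adjusted p = 0.00982 for both), whereas the 5 pairs of Lhx6 and Maf did not pass (r from 0.66 to 0.82, exact permutation adjusted p from 0.121 to 0.293). With values centred on genotype none of the 7 passed, at r of 0.86 to 0.96 (adjusted p from 0.0625 to 0.132, exact permutation within genotype). Lhx6 and Maf also had r of 0.82 and 0.86 with the pallial list without passing (exact permutation adjusted p = 0.202 for both; rho = -0.07 and 0.10), and a difference between these r values was not tested.

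Nkx2-1, Sox6 and Satb1 passed with no list. Nkx2-1 had r of 0.79 with progenitor markers (exact permutation adjusted p = 0.0756; rho = 0.83), and Satb1 had r of 0.76 with pallial markers (exact permutation adjusted p = 0.0542; rho = 0.69). Sox6 had its highest r with the pallial list (0.88, exact permutation adjusted p = 0.188; rho = 0.40), and this was 0.16 without control NX. As background, the median r over all tested genes lay between -0.03 and 0.02 for each list. With the pallial list, the r of the 7 members other than Adarb2 exceeded that of 96.6% to 99.9% of tested genes. For Nkx2-1, Maf, Lhx6 and Sox6 this rests on control NX. Without it, r was -0.42, -0.14, -0.05 and 0.16 for these genes in that order. It was 0.74 for Satb1, 0.76 for Nr2f2 and 0.78 for Prox1.

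Over all 8 libraries, Adarb2 differed in sign from the other members for 6 lists: striatal, pallial, progenitor, oligodendrocyte, microglia and vascular. There its r was below 0 and that of the other 7 above 0. Without control NX this held for the striatal and progenitor lists only. Adarb2 then had r of 0.40 with the pallial and 0.30 with the microglia list. With the oligodendrocyte and vascular lists it had -0.01 and -0.04, and Sox6 had -0.36 and -0.52. Over all 8 libraries Adarb2 was also the 1 member of 8 with r above 0 for the intercalated cell list (r = 0.69, exact permutation adjusted p = 0.192, rho = 0.62), above 97.9% of tested genes. The value of Adarb2 fell to 0.50 without control NX and to 0.17 without control NX and knockout NY, so it rests on those libraries. Without control NX, r was also above 0 for Satb1 (0.29), Nr2f2 (0.72) and Prox1 (0.45). For Adarb2 it was 0.89 on log2(TPM + 1) values and 0.44 centred on genotype, and neither passed. With Etv1 and Tshz2 left out of the list, an unplanned choice, it was 0.87 (exact permutation adjusted p = 0.0411). Such a choice makes that p no test of the relation. With progenitor markers Adarb2 had r of -0.70 (exact permutation adjusted p = 0.192; rho = -0.81), and -0.37 without control NX. All r values share library scaling, and list genes share cells, so neither the members nor the lists are independent.

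**Figure D3:**
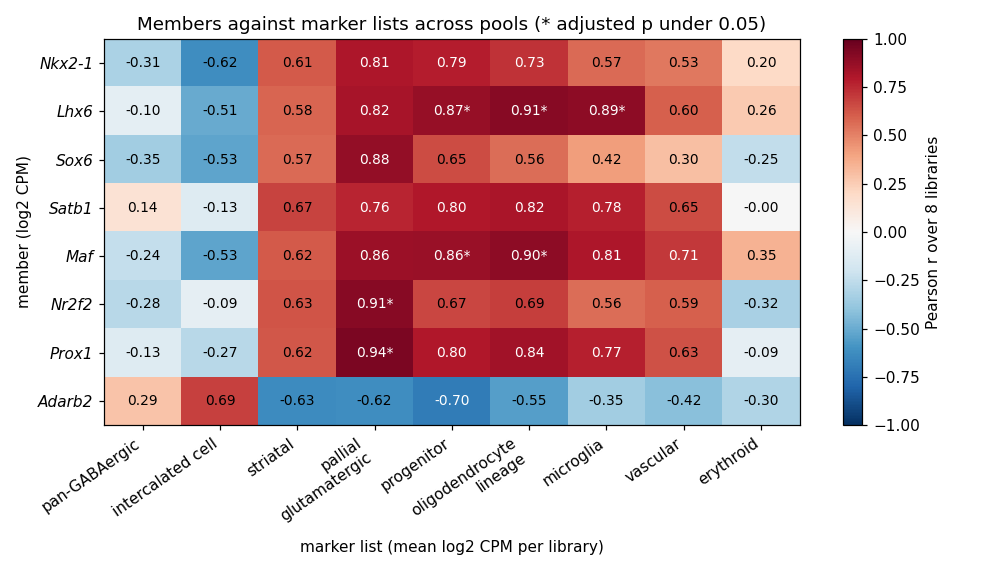
Pearson r over 8 libraries between log2 CPM of each tested gene (rows) and the mean log2 CPM of each marker list (columns), from blue (-1) to red (1), with a star where the exact permutation p adjusted over 72 pairs was under 0.05. The vascular and erythroid means rest on 3 tested genes each. The row of Adarb2 is opposite in sign to the other 7 rows for the 6 lists from striatal to vascular. Without control NX this held for the striatal and progenitor lists only.

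The genes nearest to each member were ranked by r of genotype-centred log2 CPM over the 8 libraries. Compared were the 9360 genes whose average log2 CPM was 3 or more. These are descriptions with no test, and the ranking was not repeated without control NX. Closest to Lhx6 were Cdk6 (r = 0.99), a cell cycle kinase, Mfge8 (0.98) and Tbc1d9b (0.98). For Maf they included Sparc (0.99) and Pdgfra (0.98), the receptor that marks oligodendrocyte precursors. Pdgfra was 0.0620, 28.9, 13.8 and 19.8 CPM in control NX, NY, QT and RM. In knockout libraries it was 1.63, 14.5, 5.33 and 25.8 CPM, so it was low in both NX libraries, as Maf was. The control NX value of Pdgfra rests on 1 count, under the floor of 3. Nr2f2 was nearest to Eomes (0.98), Sox5 (0.98) and Heatr5a (0.97), and Sox6 to Mllt6 (0.98), Sfrp1 (0.98) and Eomes (0.97). Eomes, a T-box factor of pallial intermediate progenitors, was 1.61, 15.8, 34.3 and 12.2 CPM across the controls and 5.79, 4.89, 15.7 and 8.15 CPM in knockout libraries. It was lowest in control NX and highest in control QT, the same 2 libraries as for Nr2f2. Prox1 lay nearest to Celsr1 (0.99), Cecr2 (0.99) and Nhsl1 (0.99), and Satb1 to Grb10 (0.99), Kif4 (0.98), a mitotic kinesin, and Prex1 (0.98). For Adarb2 the nearest were Srpk2 (0.98), a kinase of splicing factors, Rnf145 (0.98) and Utp14b (0.98); none of the 3 is on a marker list used here. Nkx2-1 and Npas1 were below the level set for this ranking.

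The knockout was compared with the control to ask whether the level of these regulators differs when Tshz1 is disrupted. None of the 8 tested members was called at an edgeR quasi-likelihood adjusted p under 0.05. Over all genes 5 of 14157 were called, or 0.0353%. DESeq2 called none of the 8 either, with 39 of 14144 genes called (0.276%). At an unadjusted p under 0.05, 1 of the 8, Adarb2, passed in edgeR, beside 3.62% of all tested genes. In CPM the genotypes overlapped for every one of the 9 members, where 2.59% of tested genes had groups that did not overlap. In TPM the groups of Nkx2-1 did not overlap, and the share of all genes was not counted on that scale. Of the 8, 4 were fitted higher and 4 lower, with a median log2 fold change of 0.03 beside -0.01 over all tested genes. These counts, with overlap taken in CPM, are near the background.

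Adarb2 had the smallest p of the members. Its mean was 155 ± 59 CPM across the controls and 81.8 ± 16.4 CPM in knockout libraries (SD, n = 4 each), a log2 fold change of -0.92 (SE 0.27, 95% interval -1.504 to -0.34; edgeR adjusted p = 0.884), and it was lower in 4 of 4 prefixes. Without control NX, its highest library, the log2 fold change was -0.64. Foxp2 moved beside it, with means of 478 ± 278 CPM against 281 ± 153 CPM (log2 fold change -0.77, SE 0.41, edgeR adjusted p = 0.9997), likewise lower in 4 of 4 prefixes, and so did the RNA of the GFP reporter (EGFP, log2 fold change -0.94, SE 0.37, edgeR adjusted p = 0.9997), lower in 4 of 4. The intercalated cell list did not move as one: 7 of its 9 genes were fitted lower and 2 higher, with a median log2 fold change of -0.35. The 2 fitted higher, named after their values were seen, were Tshz2 (1.11, SE 0.42) and Etv1 (0.41, SE 0.55), each higher in 4 of 4 prefixes with an edgeR adjusted p of 0.9997. The part of these in the value of Adarb2 was not tested.

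Nkx2-1 and Sox6 had the highest fitted values among the MGE genes, and neither passed the test. Nkx2-1 averaged 2.41 ± 1.63 CPM across the controls and 6.38 ± 2.998 CPM in knockout libraries (log2 fold change 1.40, SE 0.75, 95% interval -0.23 to 3.03; edgeR adjusted p = 0.9997). It was 0.99 without control NX and 2.16 by limma-voom. Sox6 averaged 73.0 ± 53.7 CPM across the controls and 127 ± 31 CPM in knockout libraries (log2 fold change 0.80, SE 0.49, 95% interval -0.26 to 1.86; edgeR adjusted p = 0.9997). Its value was 0.45 without control NX and 1.37 without control QT.

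For the other 5 tested members the adjusted p was 0.9997 in each case. The log2 fold change was 0.06 for Lhx6 (95% interval -0.98 to 1.09), -0.27 for Satb1 (-0.83 to 0.29) and 0.24 for Maf (-0.58 to 1.06). Among the CGE factors it was -0.003 for Nr2f2 (-0.89 to 0.88) and -0.19 for Prox1 (-0.98 to 0.60). Single libraries turned the sign of 4 of these values. That of Maf turned without control NX (-0.04) and that of Prox1 without control QT (0.10). Lhx6 was fitted lower without control NX (-0.28), knockout NY (-0.17) or knockout RM (-0.08). Nr2f2 ranged from -0.30 without control NX to 0.31 without control QT. Intervals this wide still hold changes of nearly 2-fold in either direction for Lhx6, so these libraries do not show that its level is the same in both genotypes.

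Close paralogs, genes of the same families, were set beside the members. Of the 7 described here, 6 were tested, 4 were fitted higher and 2 lower, and none was called by edgeR; Nkx2-4 was listed at 0 in all libraries. Sox5, the paralog of Sox6 and a gene of deep-layer cortical neurons, was 28.3, 76.7, 84.0 and 74.5 CPM across the controls and 114, 107, 160 and 140 CPM in knockout libraries. Its groups did not overlap (log2 fold change 0.98, SE 0.30, 95% interval 0.32 to 1.64; edgeR adjusted p = 0.9997), and it was higher in 4 of 4 prefixes. Control NX was its lowest library as well, and without that library the log2 fold change was 0.73. Npas3, at 0.80 (SE 0.38), and Nr2f1, at 0.41 (SE 0.32), were higher in CPM within each of the 4 prefixes too. The edgeR adjusted p was 0.9997 for both. On the TPM scale this did not hold. Npas3 was 26.39 TPM in control NY and 22.6 TPM in knockout NY, and Nr2f1 was 29.15 TPM in control RM and 24.88 TPM in knockout RM. In TPM, Nr2f2 stood at 0.623 to 1.35 times Nr2f1, the other COUP-TF gene, over the 8 libraries. The log2 fold change was 0.30 for Lhx8 (SE 0.90), a cholinergic lineage factor, -0.56 for Prox2 (SE 0.69) and -0.17 for Adarb1 (SE 0.27), which encodes an active RNA-editing enzyme; adjusted p was 0.9997 by edgeR for each of the 3.

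**Figure D4:**
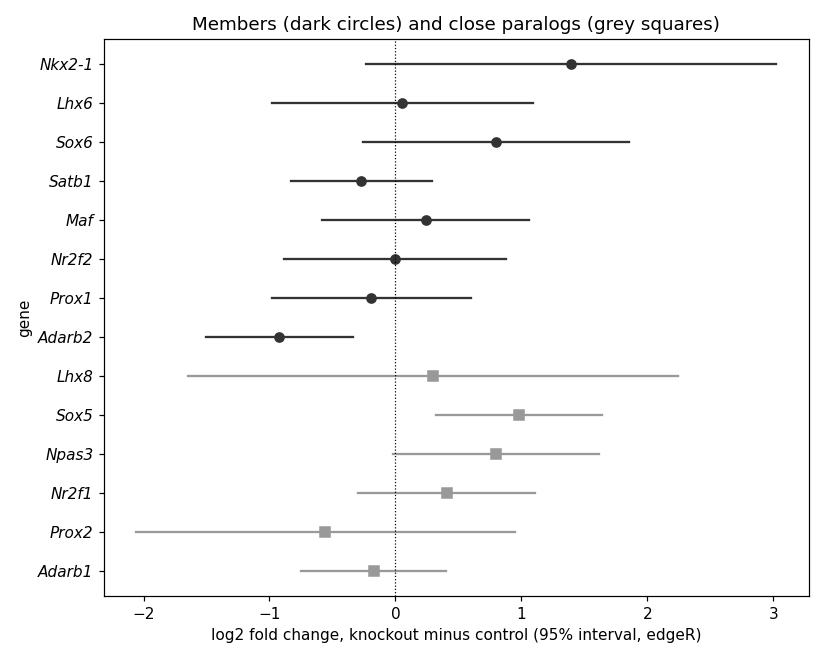
Log2 fold change, knockout minus control, with its 95% interval from edgeR for the 8 tested members (dark circles) and 6 tested paralogs (grey squares). Of the members only the interval of Adarb2 (-1.504 to -0.34) leaves out 0, and of the paralogs shown that of Sox5; none was called after adjustment by edgeR.

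Among 34 other genes of MGE and CGE interneuron development and identity, 26 were tested: 13 were fitted higher and 13 lower, the median log2 fold change was -0.05, and none was called by edgeR. At an unadjusted p under 0.05, 1 was higher and 1 lower (7.69% of the 26, beside 3.62% of all genes). The best expressed were Sp9 (139 ± 47 TPM), a zinc finger factor shared by LGE and MGE derivatives, Zeb2 (116 ± 41 TPM) and Sst (109 ± 98 TPM, SD, n = 8 for each). Sst, the somatostatin gene, was 37.9, 47.0, 108 and 278 TPM across the controls and 68.1, 20.5, 66.3 and 246 TPM in knockout libraries. Both RM libraries were far above the other 6, which Lhx6 and Satb1 did not show. Zeb2 was also lowest in control NX, at 102 CPM in control NX and 303 to 642 CPM in the other 7 libraries.

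The 2 genes at an unadjusted p under 0.05 were named after their values were seen. Lmo3, a LIM-only gene expressed in amygdalar and MGE-derived neurons, was 30.6, 59.9, 43.5 and 59.8 CPM across the controls and 93.3, 84.6, 104 and 139 CPM in knockout libraries. The groups did not overlap (log2 fold change 1.12, SE 0.26; edgeR adjusted p = 0.382; DESeq2 adjusted p = 0.0293). Erbb4, the neuregulin receptor of migrating interneurons, was 158, 136, 101 and 120 CPM across the controls and 50.4, 79.8, 63.2 and 104 CPM in knockout libraries (log2 fold change -0.79, SE 0.25; edgeR adjusted p = 0.9997). Its groups overlapped in CPM between control QT and knockout RM. In TPM they did not overlap, at 53.8 to 111 TPM in control and 29.4 to 44.0 TPM in knockout libraries. Vip, Pvalb, Sncg and Gbx2, likewise named after their values were seen, were listed at 0 TPM in all 8 libraries.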

How the data were processed

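RNA of GFP-positive cells sorted from E16.5 amygdala was sequenced in 8 libraries, 4 per genotype. Reads were trimmed with Trimmomatic 0.33, and RSEM 1.2.22, Bowtie2 and the build mm10 are also named, per the submitters' processing notes; nothing used here gives their settings or the annotation release. The deposited tables hold expected counts, which need not be whole, and TPM per gene; the 16 columns matched the per-sample files exactly. One row that names no gene (at most 1.78e-05 percent of a library) was left out. Expected counts were rounded, and edgeR 4.0.16 (R 4.3.3) ran the main test (filterByExpr, TMM, quasi-likelihood test, genotype as the only term), with p adjusted by Benjamini-Hochberg over 14157 genes and calls under 0.05. Log2 CPM used a prior count of 2. DESeq2 1.42.0, limma 3.58.1, other filters, scalings and left-out libraries were alternatives; the code was tested on simulated data. Correlations used exact permutation over all pairings of 8 libraries (scipy 1.17.1). No molecular identifiers were used, and floors cover counting error alone. Nothing says that pools are separate litters, and p-values then reflect only variation from pool to pool. The design text speaks of triplicates; all 8 libraries were used. The members and gene lists were chosen with earlier results of these data known. Named genes are the members, their paralogs, of each list the 3 best expressed and every called gene, Tshz1, EGFP and the 3 nearest genes per member; some of these are not reported here, and exceptions are stated.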

Additional observations from a re-analysis of the deposited data

Results flagged for a closer look

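Npas1 in the control libraries was singled out because its highest library, control RM at 3.45 CPM (19 counts), stood far from the other 3, at 0.296 to 0.612 CPM; the gap was 0.900 of the range of the group, above Dixon's 95% critical value for 4 samples. Chance gives such a gap in about 1 of 20 groups, and 18 groups (9 genes in 2 genotypes) were examined.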

How the results depend on the processing

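None of the 8 tested members was called under any of the 21 alternatives to the fit, under which 0 to 39 of all genes were called: 39 by DESeq2, 28 with a replicate block for title prefix, 19 with every gene of at least 1 count, 10 on log2(TPM + 1), 9 without composition factors, 2 by limma-voom, and 0 to 5 when single libraries or both libraries of a prefix were left out. The log2 fold change of Adarb2 stayed below 0, from -1.09 to -0.64, and that of Nkx2-1 above 0, from 0.99 to 2.16. The prefix was not taken as pairing: deviations from the genotype means correlated between same-prefix libraries at 0.385 (NX), 0.303 (NY), 0.450 (RM) and 0.066 (QT), and the QT libraries were not each other's best match while the other 3 pairs were. In the replicate block Adarb2 had -0.87 (edgeR adjusted p = 0.0858). Of the 72 pairs of member and marker list, 7 passed; 0 passed with values centred on genotype and permuted within it (576 pairings), and 2 on log2(TPM + 1), where those kept were Nr2f2 and Prox1 with the pallial list and the 5 pairs of Lhx6 and Maf were lost; the cause was not tested. Centred on genotype, r of the 7 pairs was still 0.86 to 0.96. Values centred on prefix gave no test, since 0.125 is the smallest p they allow. With 4 pools per genotype and 3 counts equal to up to 0.545 CPM, Npas1 and, in control NX, Nkx2-1 were at the limit of detection. Medial amygdala markers, with 1 tested gene, entered no correlation.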
